A study of Mus musculus with 12 samples.

Results

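The enzymes that make pyrimidine nucleotides and turn them into DNA precursors were followed in thymic tissue of mice through 9 genes: Cad, Umps, Dhodh, Tyms, Rrm1, Rrm2, Dut, Tk1 and Dck. The 9 were chosen by name for their function, with earlier results of these data known. All 9 were found among the 24478 gene symbols of the tables and passed the filter on low counts. Sequencing of poly(A) RNA gave 12 libraries in 4 groups of 3. The labels describe the control tissue as T lymphocytes with endogenous MYC alone. A pair of groups were spontaneous thymic lymphomas, labelled as T lymphocytes that express only an ectopic MYC mutant, either MYCT58A or MYCS62A, in which alanine replaces a residue whose phosphorylation governs the turnover of the MYC protein. The last group came from thymic tissue of MYCS62A mice with spontaneous splenomegaly. Its label names B as well as T lymphocytes, with both the ectopic mutant and endogenous MYC, and its samples are called splenomegaly masses here. All 4 groups had thymic tissue as their source. The labels give neither ages nor the promoter or cell type that drives the ectopic MYC. Nor do they state whether each library is a different animal, so p-values reflect only how far these samples spread, part of which may be technical.

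Pyrimidines are built in a fixed order. CAD, a single protein with several active sites, carries out the first steps, DHODH in the mitochondrion oxidises dihydroorotate to orotate, and UMPS makes UMP from orotate. Ribonucleotide reductase, a complex of RRM1 and RRM2, turns ribonucleotides into deoxyribonucleotides. DUT cleaves dUTP to dUMP, which keeps uracil out of DNA, and thymidylate synthase, the product of Tyms, methylates dUMP to dTMP. A salvage route reuses nucleosides from dying cells: TK1 phosphorylates thymidine and DCK phosphorylates deoxycytidine, and DCK is known for its high activity in the thymus. Many of these genes are transcribed most in S phase, and Cad is a classic target gene of MYC.

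On the mm9 build used by the authors, the transcript rows that stood for the members lie at chr5:31357153-31380852 on the plus strand for Cad, chr16:33955098-33967089 on the minus strand for Umps and chr8:112117148-112132573 on the minus strand for Dhodh. Tyms lies at chr5:30384740-30400165 on the minus strand and Dut at chr2:125073251-125084785 on the plus strand. The reductase genes lie on the plus strand, Rrm1 at chr7:109590209-109618285 and Rrm2 at chr12:25393119-25399011. The salvage kinase genes are Tk1 at chr11:117676833-117687328 on the minus strand and Dck at chr5:89194038-89212302 on the plus strand. Cad, Tyms and Dck thus share chromosome 5. The 5 prime end of Tk1 overlaps the start of Afmid on the opposite strand, where the pair share 96 of the 10496 bases that Tk1 spans. Reads in that stretch cannot be told apart unless the counting used strand, and the strand setting is not given in the sources used here.

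The sequences just before the transcription start are shown for Cad, which rose in the lymphomas, for Tyms, which fell, and for the genes of the reductase, whose levels moved more alike. They are the 250 bases before the start, from RefSeq on GRCm38.p6, read 5 prime to 3 prime on the gene's own strand. The windows are chr5:31054530-31054779 (plus strand) for Cad, chr5:30073626-30073875 (minus) for Tyms, chr7:102441445-102441694 (plus) for Rrm1 and chr12:24708004-24708253 (plus) for Rrm2. Capitals mark any match, on either strand, to the E-box CACGTG, to an E2F-like motif (the form TTCCCGC, the form TTCGCGC, the form TTGGCGC or the form TTGCCGC) or to CCAAT.
Cad: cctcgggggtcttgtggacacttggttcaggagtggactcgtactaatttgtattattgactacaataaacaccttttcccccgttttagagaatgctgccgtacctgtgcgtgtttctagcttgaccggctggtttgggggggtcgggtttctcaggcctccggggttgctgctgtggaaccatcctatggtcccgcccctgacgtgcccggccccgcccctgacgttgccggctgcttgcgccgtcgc
Tyms: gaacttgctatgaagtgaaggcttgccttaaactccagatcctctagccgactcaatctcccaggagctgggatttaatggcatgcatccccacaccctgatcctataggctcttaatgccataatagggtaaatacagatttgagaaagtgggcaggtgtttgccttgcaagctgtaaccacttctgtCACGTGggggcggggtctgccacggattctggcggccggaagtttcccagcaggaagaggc
Rrm1: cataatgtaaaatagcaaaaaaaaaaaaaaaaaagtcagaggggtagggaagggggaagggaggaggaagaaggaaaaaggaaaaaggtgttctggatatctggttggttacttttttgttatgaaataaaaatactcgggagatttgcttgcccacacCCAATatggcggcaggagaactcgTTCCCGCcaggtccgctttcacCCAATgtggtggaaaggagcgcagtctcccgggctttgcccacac
Rrm2: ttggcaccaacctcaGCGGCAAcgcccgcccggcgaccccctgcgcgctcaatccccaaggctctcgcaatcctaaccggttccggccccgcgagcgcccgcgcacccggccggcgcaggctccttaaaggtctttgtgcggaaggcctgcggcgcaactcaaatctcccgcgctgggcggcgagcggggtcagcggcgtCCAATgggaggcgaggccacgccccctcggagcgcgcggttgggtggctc
The E-box is the motif that MYC and MAX bind, and the window of Tyms held one, its first base 61 bases before the start. That of Rrm1 held TTCCCGC at 67 bases before the start and CCAAT at 91 and 45 before it. That of Rrm2 held an E2F-like motif on the other strand at 235 bases before the start and CCAAT at 50. No match stood before the start of Cad, where TTGCCGC lay 37 bases after it. Bases beyond 50 after the start were not searched, so a site further into the gene would be missed. With 50 bases after the start included, 8 of the 9 members had a promoter entry. Of these, 1 held the E-box, 3 the E2F-like motif and 2 CCAAT. Among 32851 promoters of the same 300 bases, 7.15% held the E-box, 9.57% the E2F-like motif and 37.4% CCAAT. A match is a match of letters only.

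Reads assigned to genes ranged from 9577372 to 22437968 per library. Levels are given as CPM, the reads of a gene relative to library depth after scaling by the TMM factors of edgeR, with SD over 3 libraries. Fold changes are log2 values with SE from edgeR's quasi-likelihood test, and adjusted p-values come from the method of Benjamini and Hochberg over 15606 genes, with a threshold of 0.05. The cell make-up of the tissue moved with the groups, and fewer cells of a type cannot be told apart from less RNA per cell in these bulk samples. Marker sums are CPM without TMM scaling. The summed level of 10 T cell markers lay at 9476 to 9730.0 CPM in the controls. The T58A lymphomas had 3111 to 4449.9, the S62A lymphomas 2429 to 4073 and the splenomegaly masses 908 to 980.1. Against control, 6, 7 and 9 of the 10 fell in these groups in that order. Of all genes, 17.4%, 22.2% and 26.3% fell and 18.8%, 21.9% and 22.9% rose, shares that stand beside each marker count here. The 7 B cell markers summed to 1927 to 2715 CPM in splenomegaly masses, where all 7 rose, against 74.4 to 80.7 in controls. They summed to 35.4 to 391 in T58A lymphomas, where 4 of the 7 rose. In S62A lymphomas they summed to 32.5 to 58.5, and 2 of the 7 fell, near the 22.2% of all genes. The 4 plasma cell markers summed to 14335 to 22942 CPM in splenomegaly masses, where all 4 rose, against 254 to 312 in controls, 341 to 2460 in T58A lymphomas (3 rose) and 169.9 to 618 in S62A lymphomas (2 rose). The 9 markers of double-positive thymocytes summed to 10048 to 11253 CPM in controls, 3906 to 4623 in T58A lymphomas, 2555 to 4301 in S62A lymphomas and 295 to 329.8 in splenomegaly masses, and 5, 7 and 9 of the 9 fell. The 7 thymic epithelium markers, at 2294 to 2549.9 CPM in controls, reached at most 147 elsewhere. Of the markers in these 5 lists, Ptcra alone was at 0 throughout a group, the T58A lymphomas. Titles carry a letter code whose meaning the labels do not give: H for 1 control and all T58A lymphomas, G for the other controls, and I for both S62A groups. For the S62A groups the code and the group cannot be told apart.

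Myc itself, counted at the mouse gene, stood at 85.5, 79.9 and 82.9 CPM in controls. It stood at 159, 134 and 137 CPM in T58A lymphomas, at 158, 203 and 157 in S62A lymphomas and at 84.2, 91.6 and 99.98 in splenomegaly masses. Every lymphoma library lay above every control, and the splenomegaly masses overlapped with controls. The log2 fold change against control was 0.79 ± 0.13 in T58A lymphomas (adjusted p = 0.000876) and 1.06 ± 0.13 in S62A lymphomas (adjusted p = 0.000109). Whether reads of the ectopic copy are counted at this gene is not given in the labels, so these values do not check the labels.

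The 9 genes did not move as a block. In T58A lymphomas 1 member (Cad) rose and 3 (Tyms, Tk1, Dck) fell against control, where 36.2% of all genes passed, 18.8% higher and 17.4% lower. In S62A lymphomas 2 (Cad, Umps) rose and 3 (Tyms, Tk1, Dck) fell, against 44.1% of all genes, 21.9% higher and 22.2% lower. In splenomegaly masses 1 (Cad) rose and 5 (Tyms, Rrm1, Rrm2, Dut, Dck) fell, against 49.2% of all genes, 22.9% higher and 26.3% lower. The members' median log2 fold change was 0.01 in T58A and 0.02 in S62A lymphomas, beside 0.01 and 0.00 over all genes tested. In splenomegaly masses it was -0.47, beside -0.08 over all genes. By libraries alone, 2 members (Cad and Umps) lay above all controls and 3 below in T58A lymphomas, beside 28.8% and 31.2% of all genes. In S62A lymphomas these were again 2 and 3, beside 28.0% and 32.3% of all genes. In splenomegaly masses 1 lay above and 7 below, beside 4998 of all 15606 genes above and 38.5% below. These 3 comparisons share the control libraries, so their values are set side by side and not counted as separate support.

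**Figure D1:**
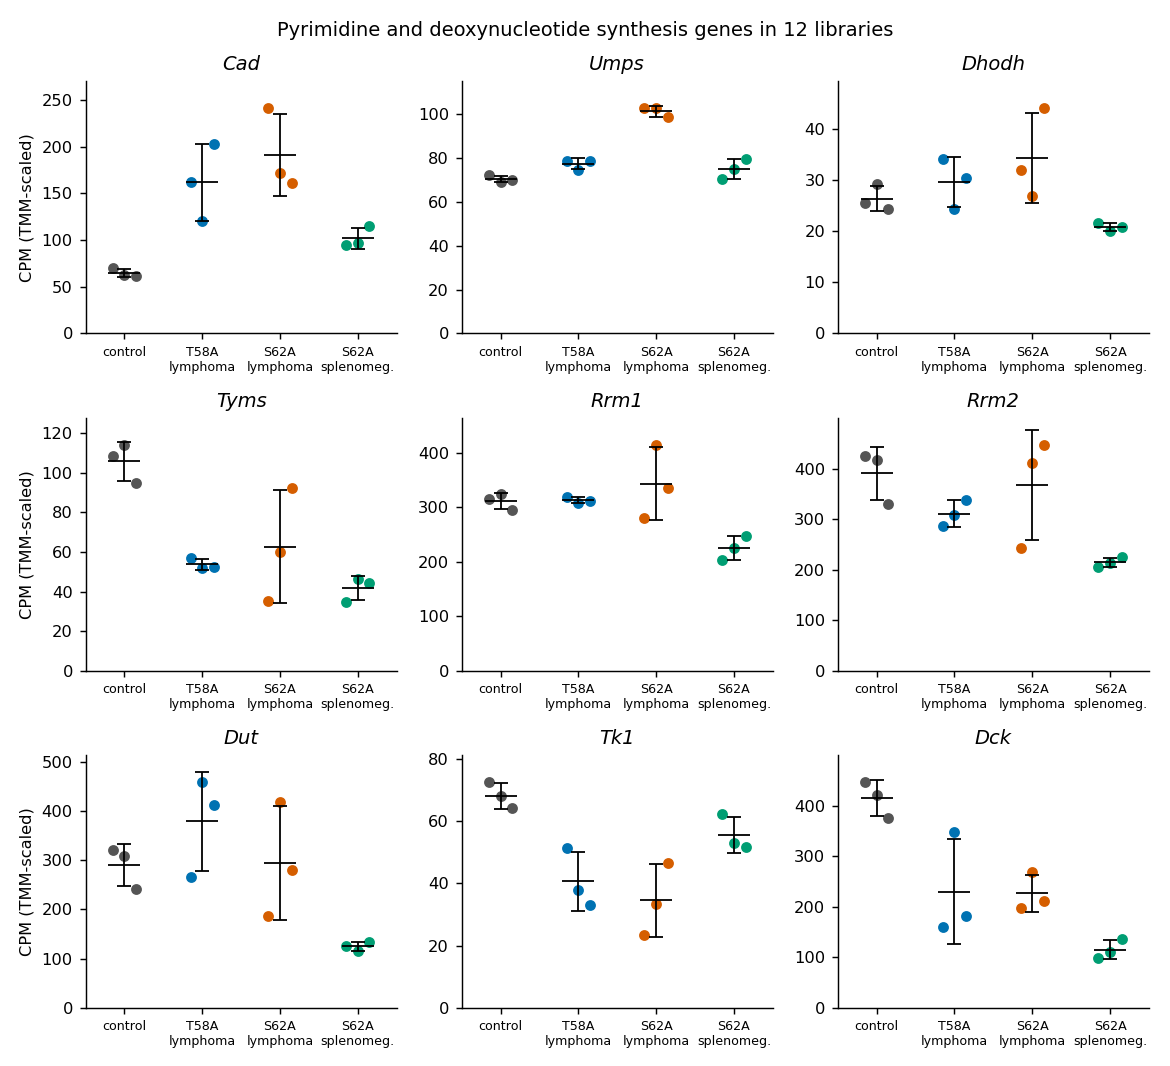
Level of each of the 9 genes in 12 libraries, in TMM-scaled CPM on axes that start at 0. Points are libraries, horizontal lines the means and bars the SD of 3 libraries. Cad lies above all controls in every other library, while Tyms and Dck lie below all controls.

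Cad had the largest rise of the 9 against control. Its level was 70.1, 62.04 and 61.8 CPM in controls, against 162, 120.5 and 202 for T58A and 241, 172 and 160.5 for S62A lymphomas and 94.1, 97.1 and 115 for splenomegaly masses. The controls lay within 1.13 times of each other and below each of the other 9 libraries. The log2 fold change was 1.32 ± 0.20 in T58A lymphomas, a 2.50-fold higher level (adjusted p = 0.000619). It was 1.56 ± 0.20 in S62A lymphomas, a 2.96-fold higher level (adjusted p = 0.000167), and 0.66 ± 0.20 in splenomegaly masses (adjusted p = 0.0179). The rise in splenomegaly masses no longer passed without control 2 (adjusted p = 0.0627) or control 3 (adjusted p = 0.0606). Against the T58A lymphomas, splenomegaly masses were lower, with a log2 difference of -0.66 ± 0.20 (adjusted p = 0.0187), a call lost without T58A lymphoma 3 or splenomegaly mass 1 or 2, with adjusted p up to 0.0865. Against S62A lymphomas the difference was -0.91 ± 0.20 (adjusted p = 0.00284). When T58A lymphomas were set against the 1 control of the same title code, the Cad difference was 1.40 with adjusted p = 0.111.

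The genes of the later steps to UMP moved less than Cad. Umps varied little within groups, with 71.99, 69.2 and 69.7 CPM in controls and 78.6, 74.6 and 78.8 in the T58A group, then 103, 103 and 98.4 in S62A lymphomas, with 70.4, 75.0 and 79.7 in the splenomegaly group. S62A lymphomas stood above all other libraries. Their log2 difference from control was 0.53 ± 0.09 (adjusted p = 0.00105) and that of splenomegaly masses from S62A lymphomas was -0.43 ± 0.09 (adjusted p = 0.00226). The T58A lymphomas also lay above every control, but the difference of 0.14 ± 0.09 did not pass (adjusted p = 0.263). Dhodh was the least abundant by CPM, at 24.4 to 29.3 CPM in the controls. The T58A lymphomas had 24.4 to 34.1, the S62A lymphomas 26.9 to 44.1 and the splenomegaly masses 20.1 to 21.6. None of its differences from control passed, although each splenomegaly mass lay below each library of the other groups. The difference between splenomegaly masses and S62A lymphomas, -0.72 ± 0.20, passed (adjusted p = 0.0102).

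Tyms was lower in all 3 groups than in control tissue. It stood at 109, 114 and 94.9 CPM in controls, against 56.8, 52.1 and 52.3 for T58A and 35.4, 60.1 and 92.5 for S62A lymphomas and 34.8, 46.2 and 44.3 for splenomegaly masses. No library outside the controls reached the lowest control, and S62A lymphoma 3 came within 3 CPM of it. The T58A lymphomas were close together, whereas the S62A lymphomas spread over 2.61 times. The log2 fold change was -0.98 ± 0.27 in T58A lymphomas (adjusted p = 0.0152), -0.76 ± 0.27 in S62A lymphomas (adjusted p = 0.0388) and -1.34 ± 0.27 in splenomegaly masses (adjusted p = 0.00198). The T58A call was lost without control 2 (adjusted p = 0.0513). The S62A call was lost without any 1 control, S62A lymphoma 1 or 2, or splenomegaly mass 2 or 3, with adjusted p from 0.0506 to 0.104, and also when only these groups were fitted (adjusted p = 0.101). With T58A lymphomas and the control of the same title code alone, the difference was -0.81 (adjusted p = 0.0923).

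A pseudogene copy, Tyms-ps, took reads in the same samples. Its level was 21.9 to 28.9 CPM in controls and 13.3 to 14.9 in the T58A group, then 10.5 to 27.5 in S62A lymphomas, with 8.31 to 10.8 in the splenomegaly group. The way reads were shared between the gene and the copy is not given in the sources used here, so the level of Tyms alone is uncertain. With the reads of the copy added to Tyms, an alternative chosen after the data were seen, the log2 fold changes were -0.95, -0.72 and -1.35 in the same order, and each still passed.

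Dut did not follow Tyms in the lymphomas. It stood at 320.1, 309 and 241 CPM in the controls. The T58A lymphomas had 265, 458 and 413, the S62A lymphomas 186, 418 and 280 and the splenomegaly masses 126, 115 and 134. Both lymphoma groups overlapped with controls, and the splenomegaly masses lay below all other libraries. The differences of the lymphomas from control, 0.38 ± 0.27 and 0.02 ± 0.27, did not pass (adjusted p = 0.290 and 0.956). In splenomegaly masses the difference was -1.21 ± 0.28 from control (adjusted p = 0.00389), -1.60 ± 0.28 from T58A lymphomas (adjusted p = 0.000976) and -1.24 ± 0.28 from S62A lymphomas (adjusted p = 0.00301).

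The subunit genes of ribonucleotide reductase fell in splenomegaly masses and showed no difference that passed in either lymphoma. Rrm1 stood at 317, 324 and 295 CPM in controls, against 319, 309 and 313 for T58A and 280.2, 415 and 337 for S62A lymphomas and 204, 225 and 248 for splenomegaly masses. The T58A lymphomas lay among the controls, with a difference of 0.01 ± 0.14, and all 3 splenomegaly masses lay below every other library. Rrm2 stood at 425, 418 and 330.3 CPM in controls and 286, 309 and 338 in the T58A group, then 242, 412 and 446 in S62A lymphomas, with 205, 214 and 224 in the splenomegaly group. Against control, the splenomegaly masses were lower, with a log2 difference of -0.47 ± 0.14 for Rrm1 (adjusted p = 0.0169) and -0.87 ± 0.20 for Rrm2 (adjusted p = 0.00431). The Rrm1 call was lost without control 2 (adjusted p = 0.0563) or splenomegaly mass 1 (adjusted p = 0.0888). Against S62A lymphomas the differences were -0.61 ± 0.14 for Rrm1 (adjusted p = 0.00371) and -0.77 ± 0.20 for Rrm2 (adjusted p = 0.00695). Rrm2b, the gene of a small subunit that p53 induces and that serves cells outside S phase, rose from 15.7 ± 1.85 CPM in controls to 25.5 ± 5.20 in T58A lymphomas and 28.1 ± 6.19 in splenomegaly masses. These rises, 0.70 ± 0.23 (adjusted p = 0.0376) and 0.84 ± 0.24 (adjusted p = 0.0124), were each lost without some single libraries. For T58A lymphomas these were each of the 3 controls and T58A lymphomas 1 and 3 (adjusted p up to 0.136), and for splenomegaly masses control 2 and splenomegaly mass 2 (adjusted p up to 0.0573).

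The salvage kinase genes both fell in the lymphomas. In the splenomegaly masses both lay below all controls, but the difference passed for Dck alone. Dck stood at 446, 421 and 376 CPM in the controls. The T58A lymphomas had 161, 348 and 181, the S62A lymphomas 198, 269 and 212 and the splenomegaly masses 98.8, 110.3 and 136. The highest of the other libraries, T58A lymphoma 2, lay below the lowest control, and all splenomegaly masses lay below all lymphomas. The log2 fold change was -0.85 ± 0.26 in T58A lymphomas (adjusted p = 0.0256), -0.87 ± 0.26 in S62A lymphomas (adjusted p = 0.0190) and -1.85 ± 0.27 in splenomegaly masses, a 3.60-fold lower level (adjusted p = 0.000238). The calls in the lymphomas were lost without control 1 or 2, or without replicate 1 or 3 of the lymphoma group, with adjusted p up to 0.0880 for T58A and 0.0600 for S62A. With the control of the same title code alone, the T58A difference was -0.70 (adjusted p = 0.407). Dck levels and the T cell marker sums given above were both highest in controls and lowest in splenomegaly masses, with the lymphoma groups overlapping between them, and the part of the cell make-up in this result was not tested.

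Tk1 stood at 72.6, 68.0 and 64.2 CPM in controls, against 51.4, 37.8 and 33.1 for T58A and 23.3, 33.6 and 46.7 for S62A lymphomas and 62.2, 53.0 and 51.7 for splenomegaly masses. Each lymphoma lay below each control, and so did each splenomegaly mass. In CPM each lymphoma also lay below each splenomegaly mass, but T58A lymphoma 1 (51.4) and splenomegaly mass 3 (51.7) barely parted. On the authors' FPKM scale the order of these libraries was reversed, at 46.7 and 44.6. The log2 fold change against control was -0.74 ± 0.23 in T58A lymphomas (adjusted p = 0.0285), -0.98 ± 0.24 in S62A lymphomas (adjusted p = 0.00640) and -0.29 ± 0.23 in splenomegaly masses, which did not pass (adjusted p = 0.316). The T58A call was lost without any 1 control or T58A lymphoma 2 or 3, with adjusted p from 0.0556 to 0.0950, and with the control of the same title code alone it was -0.65 (adjusted p = 0.274). Tk1 was the member that rose from S62A lymphomas to splenomegaly masses, by 0.69 ± 0.24 (adjusted p = 0.0278), a call lost without S62A lymphoma 1 or 2 or splenomegaly mass 1 (adjusted p up to 0.0862) and when only these groups were fitted (adjusted p = 0.0512). Afmid, whose start overlaps Tk1 on the opposite strand, stood at 30.2 to 43.0 CPM in splenomegaly masses, against 17.4 to 19.4 in controls and 8.14 to 19.98 in the lymphomas. Its part in the Tk1 counts was not tested.

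**Figure D2:**
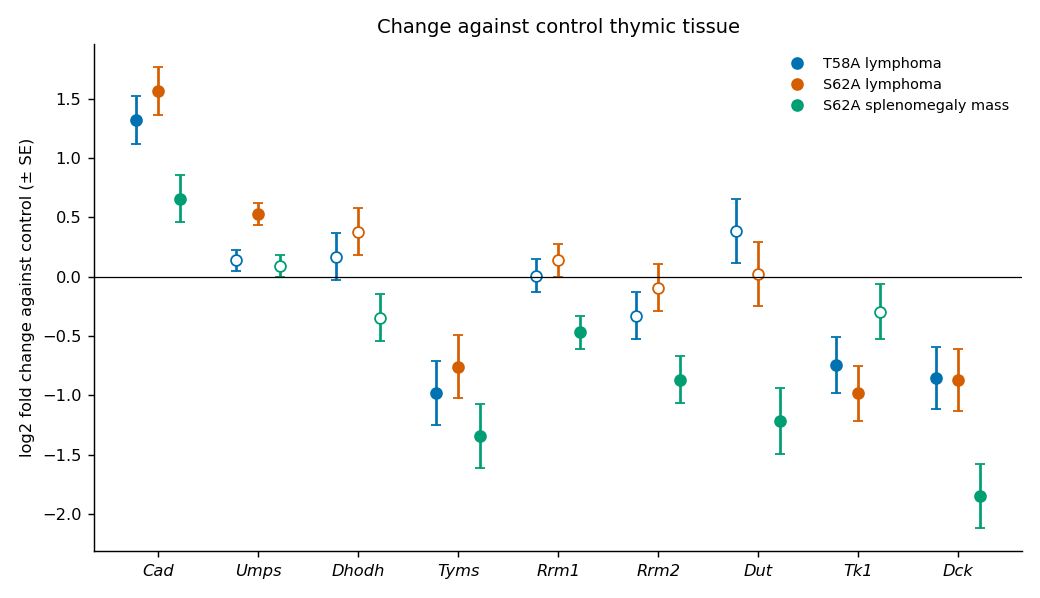
log2 fold change of each gene against control tissue, with SE, in T58A lymphomas, S62A lymphomas and splenomegaly masses. Filled points passed an adjusted p of 0.05 over all genes and open points did not. The S62A and T58A values lie close for most genes, and 5 of the 9 genes fell in splenomegaly masses.

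The lymphomas of the MYC mutants differed little from each other in these genes. From T58A to S62A lymphomas 1 member, Umps, passed as higher and 0 as lower (0 also at an unadjusted p of 0.05, with DESeq2 and with limma), where 3.15% of all genes passed, 0.859% higher and 2.29% lower. The Umps difference was 0.39 ± 0.09 (adjusted p = 0.0465), with all 3 S62A lymphomas above all 3 T58A lymphomas, which 1566 of all 15606 genes showed, and 11.0% lay the other way. It was lost without any library of the T58A, S62A or control groups and without splenomegaly masses 2 or 3, with adjusted p up to 0.151. Of all 15606 genes, 134 were higher and 358 lower in this comparison, a split that became 86 and 456 when libraries were scaled by size alone. The other members differed by between -0.36 ± 0.27 for Dut and 0.24 ± 0.20 for Cad, and their libraries overlapped. With SEs of this size, differences within these limits could not be resolved.

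Splenomegaly masses differed from S62A lymphomas in 8 of the 9 genes, 7 of them lower (Cad, Umps, Dhodh, Rrm1, Rrm2, Dut and Dck) and Tk1 higher. There 54.3% of all genes passed, 25.6% higher and 28.6% lower, and the members' median log2 difference was -0.72, beside -0.07 over all genes. Libraries of these groups did not overlap for the same 8 members, beside 27.9% of all genes higher and 30.2% lower. Tyms, at -0.59 ± 0.27, did not pass (adjusted p = 0.0839), but passed without S62A lymphoma 1, at -0.88 (adjusted p = 0.00334). The Dck difference was -0.97 ± 0.26 (adjusted p = 0.00870). Against T58A lymphomas, 5 members were lower (Cad, Rrm1, Rrm2, Dut, Dck) and 0 higher (0 also at an unadjusted p of 0.05, with DESeq2 and with limma), where 45.1% of all genes passed, 20.5% higher and 24.6% lower. By libraries alone 1 member (Tk1) lay above and 7 lay below all T58A lymphomas, beside 26.1% and 29.9% of all genes. For Tk1 the nearest libraries, at 51.7 and 51.4 CPM, barely parted, and their order was reversed in FPKM. The Dck difference there was -0.998 ± 0.262 (adjusted p = 0.00985), lost without splenomegaly mass 1 (adjusted p = 0.0512). The Rrm1 difference was -0.48 ± 0.14 (adjusted p = 0.0172), lost without T58A lymphoma 2 or splenomegaly mass 1 (adjusted p up to 0.102). The Rrm2 difference of -0.54 ± 0.20 (adjusted p = 0.0465) was lost in 8 of the 12 fits that left out a library (control 1 or 2 and each T58A lymphoma and splenomegaly mass), with adjusted p up to 0.159. Dhodh, at -0.51 ± 0.20, did not pass (adjusted p = 0.0563), and passed without T58A lymphoma 2 or S62A lymphoma 2 or 3.

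Genes of DNA replication, which share S phase with many of these enzymes, were low in splenomegaly masses too. Of 32 replication genes, which hold none of the 9, 20 fell and 0 rose in splenomegaly masses against control, beside 26.3% and 22.9% of all genes. Of the 32, 0 were higher at an unadjusted p of 0.05. In T58A lymphomas 2 rose and 4 fell, beside 18.8% and 17.4% of all genes. In S62A lymphomas 7 rose and 1 fell, beside 21.9% and 22.2%, so the 7 of 32 that rose lay near the background. The mean log2 CPM of the 32 genes was 5.86 to 6.06 in splenomegaly masses and 6.41 to 6.998 in all other libraries. Of 13 mitosis genes, 12 fell in splenomegaly masses, where 26.3% of all genes fell. The replication mean of each library was subtracted from the log2 level of each member, as a description with no test.

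**Figure D3:**
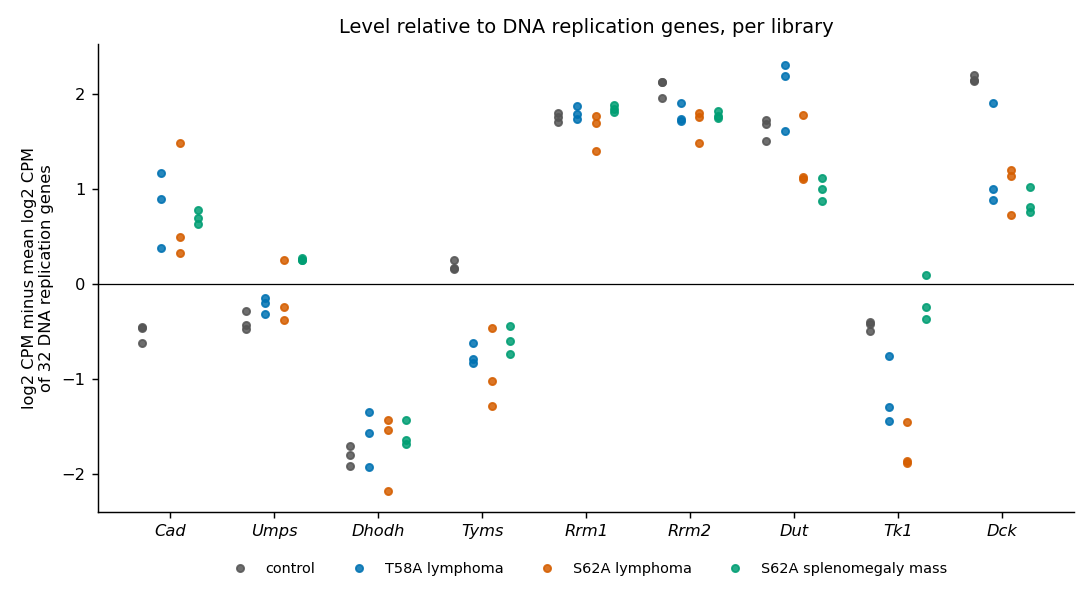
log2 CPM of each gene minus the mean log2 CPM of 32 DNA replication genes in the same library. Points are the 12 libraries by group. Relative to replication genes, Cad is higher and Tyms and Dck are lower than in every control in all 3 other groups, and the mean of Rrm1 differs from control by 0.09 in splenomegaly masses.

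On this scale Cad stood at -0.62 to -0.45 in controls, against 0.38 to 1.17 for T58A and 0.33 to 1.48 for S62A lymphomas and 0.63 to 0.78 for splenomegaly masses. Tyms stood at 0.16 to 0.25 in controls and at -1.28 to -0.44 elsewhere, and Dck at 2.14 to 2.204 in controls and 0.73 to 1.91 elsewhere. In each lymphoma group 1 member (Cad) lay above all controls and 4 (Tyms, Rrm2, Tk1, Dck) lay below. The same held for 28.2% (above) and 28.8% (below) of all other genes in T58A lymphomas and 15.4% and 36.1% in S62A lymphomas. In splenomegaly masses 5 (Cad, Umps, Dhodh, Rrm1, Tk1) lay above all controls and 4 (Tyms, Rrm2, Dut, Dck) below, beside 50.6% and 19.3% of other genes. Of these, Dhodh, Rrm1 and Tk1 barely parted from the controls. The lowest splenomegaly mass and the highest control stood at -1.68 and -1.71 for Dhodh, 1.81 and 1.80 for Rrm1, and -0.37 and -0.40 for Tk1. The mean difference of Rrm1 from control was then 0.09 and that of Rrm2 was -0.30 in splenomegaly masses, where Dck still differed by -1.29, Tyms by -0.79 and Dut by -0.64. Between the lymphomas, Tk1 was the member whose libraries no longer overlapped, with a mean difference of -0.56 in S62A, where 1.34% of other genes lay higher and 18.9% lower. The groups barely parted: S62A lymphoma 3 stood at -1.449 and T58A lymphoma 3 at -1.445. From S62A lymphomas to splenomegaly masses 3 members (Umps, Rrm1, Tk1) lay higher and none lower, beside 50.1% and 6.95% of other genes. From T58A lymphomas 2 (Umps, Tk1) lay higher and 1 (Dut) lower, beside 45.0% and 12.6%.

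Levels were compared between genes on the authors' FPKM scale, which divides by transcript length. In control tissue the order was Rrm2 (226 ± 32.3 FPKM), Dck (156 ± 14.6), Dut (143 ± 22.2), Rrm1 (99.1 ± 5.66), Tk1 (64.1 ± 4.41), Tyms (31.3 ± 3.21), Umps (24.6 ± 0.618), Dhodh (14.0 ± 1.44) and Cad (12.3 ± 0.947). Dck and Dut overlapped in their libraries, as did Dhodh and Cad. Cad moved from the lowest place in controls to the fifth in S62A lymphomas, at 33.8 ± 7.47 FPKM, and Dck from the second place to the fifth in splenomegaly masses, at 40.1 ± 6.61 FPKM. At those places the libraries of Cad overlapped with those of Umps and Tk1, and the libraries of Dck with those of Tk1. Dut headed the order in T58A lymphomas, at 183 ± 50.2 FPKM beside 177 ± 17.1 for Rrm2, a gap smaller than the SD of Dut. Of the reductase subunits, Rrm2 stood at 2.27 ± 0.212 times the FPKM of Rrm1 in controls, against 1.81 ± 0.169 for T58A and 1.93 ± 0.433 for S62A lymphomas and 1.74 ± 0.0913 for splenomegaly masses. The ratio of Rrm2 to Rrm2b was 57.97 ± 12.5 in controls and 18.1 ± 3.63 in splenomegaly masses. It was 28.8 ± 5.81 in T58A and 43.8 ± 19.6 in S62A lymphomas. For Cad over Tyms, the ratio of FPKM was 0.349 to 0.418 in controls and between 1.11 and 4.37 in every other library.

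The genes whose profile over the 12 libraries lay nearest to each member were found by the root mean square difference of centred log2 CPM among 8729 genes with a mean of at least 20 CPM. The smallest distances were those of Rrm1 to the helicase gene Mcm3 (0.08) and of Umps to Slain2 (0.07) and the importin gene Kpnb1 (0.08). Rrm2 lay nearest to Mcm6 (0.11), Gpsm2 (0.12) and Cdc6 (0.14), of which Mcm6 and Cdc6 act in replication origin licensing. Rrm1 was followed by Nup62 (0.08) and Cdc16 (0.09), and Umps by Tubgcp5 (0.09). Cad lay nearest to Bmi1 (0.16), the poly(A) binding protein gene Pabpc1 (0.17) and Ddx21 (0.17), an RNA helicase gene of the nucleolus. Tyms lay nearest to Fbxl22 (0.17), Mbnl3 (0.19) and Prc1 (0.21), Dut to Tuba1b (0.18), Troap (0.22) and Zfp777 (0.23), and Dck to the histone gene H2afx (0.23), Atl2 (0.24) and Pif1 (0.25). For Tk1 the nearest were Arrdc1 (0.20), Hcfc1r1 (0.20) and Fermt3 (0.21), and for Dhodh Ube2a (0.10), Doc2a (0.11) and Ripk3 (0.13). Between members, the closest pair was Rrm1 and Rrm2 (0.21), and Cad and Dck lay far apart (1.13). The distances are not scaled by spread, so genes that vary little lie near many others. Rrm1 had an SD of 0.26, and Rrm2 ranked 496 of the 8729 genes by distance from it. From Rrm2, Rrm1 ranked 79. Libraries of a group share their group, so these distances describe mostly the differences between 4 groups.

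The other genes of pyrimidine metabolism were taken from 3 lists by role. Of 13 tested genes of other synthesis steps, 6 rose and 2 fell in T58A lymphomas, 8 rose and 2 fell in S62A lymphomas, and 5 rose and 2 fell in splenomegaly masses, where 36.2%, 44.1% and 49.2% of all genes passed in either direction. Their median log2 fold changes were 0.70, 0.80 and 0.35, beside 0.01, 0.00 and -0.08 over all genes. Ctps, the gene of CTP synthase, rose from 62.8, 60.7 and 52.5 CPM in controls to 115, 92.1 and 149.6 in T58A lymphomas and 156, 152 and 141 in S62A lymphomas. Its values in splenomegaly masses were 70.5, 71.4 and 81.9 CPM. The differences in the lymphomas were 1.02 ± 0.16 (adjusted p = 0.000797) and 1.35 ± 0.16 (adjusted p = 0.000109). Nme2, a gene of the kinases that turn nucleoside diphosphates into triphosphates, rose from 70.3 ± 4.596 CPM to 159 ± 12.7, 190 ± 56.6 and 195 ± 13.8 CPM in T58A lymphomas, S62A lymphomas and splenomegaly masses (adjusted p = 0.000726, 0.000164 and 9.55e-05).

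Other members of the same list fell. Nme3 fell from 31.8 CPM in controls to 11.7 in T58A lymphomas (-1.44 ± 0.28, adjusted p = 0.00266) and 14.8 in S62A lymphomas (-1.11 ± 0.28, adjusted p = 0.00838). Ctps2 fell from 47.4 CPM to 33.6 and 32.6 CPM (adjusted p = 0.0241 and 0.0137), the former call lost without control 1 or 2 or T58A lymphoma 3 (adjusted p up to 0.0849). In splenomegaly masses Dtymk, whose product phosphorylates dTMP after Tyms or Tk1, fell from 108, 109 and 105 CPM in controls to 59.5, 51.3 and 55.7 (-0.95 ± 0.15, adjusted p = 0.000362). Cmpk1, the UMP and CMP kinase gene, rose there from 112 ± 3.90 to 196 ± 35.4 CPM (adjusted p = 0.000618). Nme4 fell there from 10.7 to 3.99 CPM (adjusted p = 0.0249), a call lost without control 1 or 2 or splenomegaly mass 2 or 3 (adjusted p up to 0.0899).

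Of 9 tested genes of salvage and transport, 1 rose and 2 fell in T58A lymphomas, 1 rose and 3 fell in S62A lymphomas, and 2 rose and 4 fell in splenomegaly masses. The shares of all genes that passed were the same 36.2%, 44.1% and 49.2%, so the first 2 counts, 3 and 4 of 9, lay near the background. Slc29a1, the gene of a nucleoside transporter of the cell surface, stood at 204, 212 and 197 CPM in controls and 1741, 1066 and 1890.1 in the T58A group, then 2184, 1176 and 2787 in S62A lymphomas, with 82.7, 60.3 and 80.3 in the splenomegaly group. All 6 lymphomas thus lay above all other libraries. The log2 fold changes against control were 2.94 ± 0.31 (adjusted p = 6.81e-05), 3.33 ± 0.32 (adjusted p = 2.43e-05) and -1.46 ± 0.30 (adjusted p = 0.00211). Uridine kinase genes were among those that fell. The log2 fold change of Uckl1 was -0.83 ± 0.19 in T58A and -0.78 ± 0.19 in S62A lymphomas (adjusted p = 0.00597 and 0.00681), and that of Uck2 was -1.06 ± 0.16 in splenomegaly masses (adjusted p = 0.000275). Uck1 fell by 0.60 ± 0.18 in T58A lymphomas (adjusted p = 0.0226), lost without control 2 or 3 or T58A lymphoma 3 (adjusted p up to 0.101). Tk2, the mitochondrial thymidine kinase gene, fell from 46.1 to 28.5 CPM in S62A lymphomas (adjusted p = 0.00217). In splenomegaly masses it rose to 64.3 CPM (adjusted p = 0.0132), a call lost without control 1 (adjusted p = 0.0535). Cmpk2 rose from 9.54 to 28.4 CPM in splenomegaly masses (adjusted p = 0.0237), lost without any 1 control or splenomegaly mass 1 or 2 (adjusted p up to 0.0900). Cda was under the filter, with 77 reads over all libraries.

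Of 13 tested genes that break down pyrimidines or limit the deoxynucleotide pool, 2 rose and 1 fell in T58A lymphomas, 2 rose and 2 fell in S62A lymphomas, and 4 rose and 4 fell in splenomegaly masses. The 3 and 4 of 13 that passed in the lymphomas lay below the 36.2% and 44.1% of all genes, and the 8 of 13 in splenomegaly masses stood beside 49.2%. Samhd1, whose product cleaves deoxynucleoside triphosphates, stood at 91.0, 91.9 and 81.6 CPM in the controls. The T58A lymphomas had 152, 133 and 75.9, the S62A lymphomas 95.8, 101.7 and 82.8 and the splenomegaly masses 732, 674 and 643. The splenomegaly masses lay above all other libraries, with a difference from control of 2.95 ± 0.22 (adjusted p = 3.97e-06). Samhd1 is abundant in macrophages, and the 6 macrophage markers in the tables, all of which rose there, summed to 3500.2 to 5969.6 CPM in splenomegaly masses and 489 to 592 CPM in controls, with none at 0 throughout a group. These markers also summed to 1570 to 2254 CPM in T58A lymphomas, where 5 of the 6 rose, and 1225 to 1793 CPM in S62A lymphomas, where all 6 rose, while the Samhd1 libraries of both lymphoma groups overlapped with controls. The part of these cells in the Samhd1 level was not tested. Nt5e, the gene of the surface nucleotidase CD73, rose from 3.72 ± 0.170 CPM in controls to 23.6 ± 17.0 for T58A and 16.9 ± 1.40 for S62A lymphomas and 64.0 ± 20.5 for splenomegaly masses (adjusted p = 0.000957, 0.00229 and 4.61e-05). T58A lymphoma 2, at 43.1 CPM, stood above splenomegaly mass 1, at 40.4, and without it the T58A mean was 13.8 CPM and the log2 fold change 1.88 in place of 2.66 (adjusted p = 0.000736). Against the 1 control of the same title code the Nt5e difference was 2.60 (adjusted p = 0.183). Nt5c3b, of the cytosolic nucleotidases, fell from 144 CPM in controls to 86.7, 88.4 and 40.9 CPM in the same order (adjusted p = 0.00376, 0.00375 and 8.45e-06). Dnph1, whose product cleaves deoxynucleoside monophosphates, fell from 21.3 to 5.62 CPM in splenomegaly masses (adjusted p = 0.00213).

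Other calls of this list were lost or moved without single libraries. Nt5c2 rose by 0.86 ± 0.28 in T58A lymphomas (adjusted p = 0.0326), lost without any 1 control or T58A lymphoma 1 or 3 (adjusted p up to 0.132). Nt5c3 rose by 0.57 ± 0.17 in S62A lymphomas (adjusted p = 0.0195), lost without control 2 or 3 or S62A lymphoma 2 or 3 (adjusted p up to 0.0713). Dpyd, the gene of the first enzyme of pyrimidine breakdown, was at 2.74, 3.47 and 4.89 CPM in controls and fell to 0.127, 0.144 and 0.934 in S62A lymphomas (log2 fold change -3.18 ± 0.80, adjusted p = 0.00823). The S62A mean of 0.401 CPM rests on S62A lymphoma 3, and without it the mean was 0.135 CPM and the log2 fold change -4.70 (adjusted p = 0.00162). Dpys and Upp2 were under the filter, with 18 and 19 reads over all libraries.

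**Figure D4:**
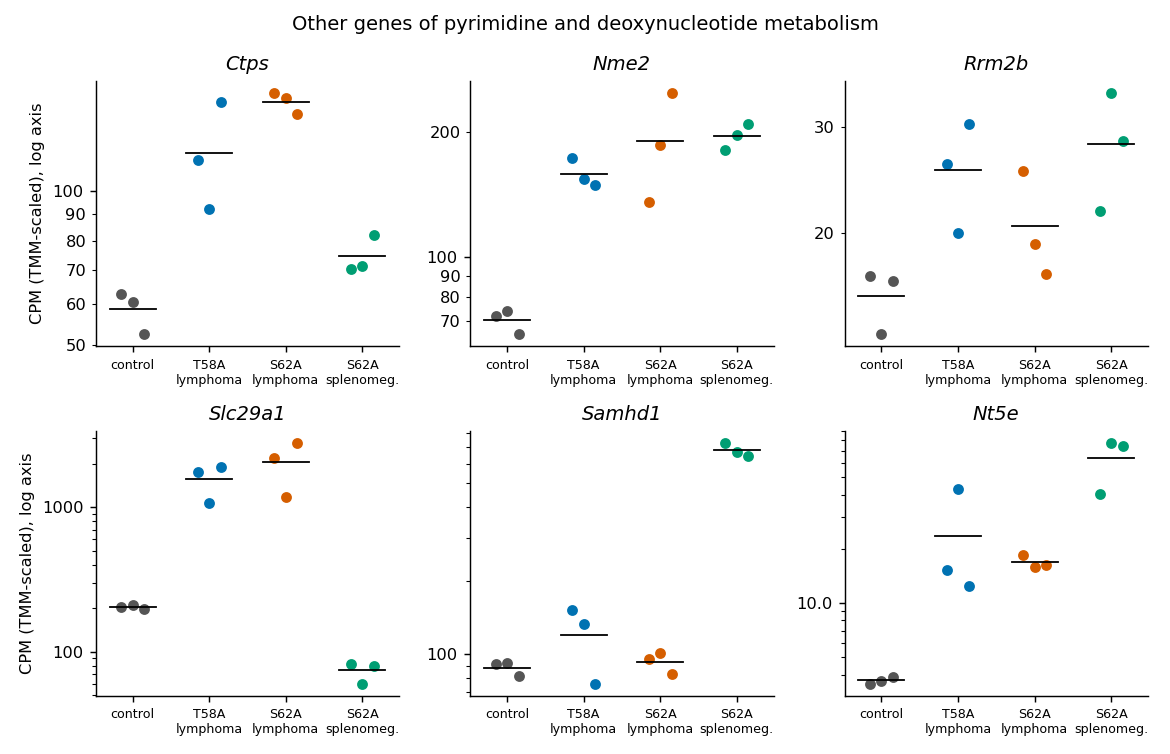
Level of 6 other genes of pyrimidine and deoxynucleotide metabolism in TMM-scaled CPM on log axes. Points are libraries and lines the means of 3 libraries. Slc29a1 is highest in the lymphomas, Samhd1 and Nt5e have their highest means in splenomegaly masses, and Ctps and Nme2 lie above all controls in every other library.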

How the data were processed

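Per the labels' protocols, poly(A) RNA of thymic tissue was extracted with Trizol, made into libraries with a directional kit and sequenced on an Illumina instrument. The deposited tables hold, per library and RefSeq transcript, a raw read count. Beside it stands the FPKM that the authors computed, scaled by transcript length and library total. Per the submitters' processing notes, the tools were bcl2fastq 2.20.0.422, Bowtie 1.0.0 and DESeq2, on mm9; how reads were counted, and with which strand setting, is not given in the sources used here, so overlapping and copied genes are uncertain. File starts behaved as counted from 0 and are printed from 1.

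A gene's value was its transcript row with the most reads (36141 rows, 24478 symbols). Counts were tested in R 4.3.3 with edgeR 4.0.16: filterByExpr (minimum count 10, 15606 genes), TMM scaling, and quasi-likelihood tests with group as the only term over all 12 libraries. On simulated data for T58A lymphomas against control (15300 genes in that step), 26.0% of genes changed by a log2 of 1 and 75.5% of those changed by 2 were recovered, with 6 false among 105 calls. The data gave 5646 calls there, so the simulation had a stricter cut on p. Alternatives were DESeq2 1.42.0, limma 3.58.1 on log2(FPKM + 1), other scalings and filters, summed transcript rows, and leaving out each library.

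The members and lists were chosen with earlier results of these data known. The text names all members, Myc, the 3 nearest profiles per member and, per list and comparison with control, the 2 risen and 2 fallen genes with the smallest adjusted p. Rrm2b, Tyms-ps, Afmid and the Ctps levels in splenomegaly masses were added after their values were seen. Replicate numbers follow deposit order.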

Additional observations from a re-analysis of the deposited data

Results flagged for a closer look

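Umps differed between the lymphomas: its change against control was larger in S62A than in T58A lymphomas by a log2 of 0.39, tested directly as S62A against T58A lymphomas (SE 0.09, adjusted p = 0.0465 by edgeR's quasi-likelihood test, higher in 3 of 3 S62A libraries than in any T58A library). When 1 library was left out at a time, the difference stayed between 0.36 and 0.41 and the adjusted p ranged from 0.0415 to 0.151. The call held only without splenomegaly mass 1 and was lost in every other such fit. With only these groups fitted, the adjusted p of the same test was 0.270.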

How the results depend on the processing

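No result of these genes changed direction once called. From T58A to S62A lymphomas, the count of members that rose went from 1 to 0 with scaling by library size alone, no filter, only the compared groups fitted, summed transcript rows, or limma on log2(FPKM + 1). From S62A lymphomas to splenomegaly masses, the count that rose went from 1 to 0 with only those groups fitted. With the control of title code H alone, T58A lymphomas had 0 risen and 0 fallen members in place of 1 and 3; a control arm of 1 library can call little, and the log2 differences there were 1.40 for Cad, -0.81 for Tyms, -0.70 for Dck and -0.65 for Tk1, beside 1.32, -0.98, -0.85 and -0.74 with all controls. Without each library in turn, fallen members against control ranged from 0 to 3 in T58A lymphomas and 1 to 3 in S62A lymphomas, and risen members in splenomegaly masses from 0 to 1. From T58A to S62A lymphomas risen members ranged from 0 to 1; from S62A lymphomas to splenomegaly masses also from 0 to 1; fallen members from T58A lymphomas to splenomegaly masses ranged from 1 to 6. Such fits have fewer samples. Over all genes, the 134 higher and 358 lower from T58A to S62A lymphomas became 617 and 1137 with DESeq2, 0 and 0 with only those groups fitted, and between 19 and 89 (without control 2) and 211 and 572 (without T58A lymphoma 1) when a library was left out. T58A lymphomas against the code H control gave 176 and 237, in place of 2938 and 2708. Scaling by library size alone moved the median of all genes in splenomegaly masses against control from -0.08 to -0.19. The adjusted p of the Rrm2 fall from T58A lymphomas to splenomegaly masses was 0.0786 with DESeq2 size factors, 0.0646 with DESeq2, 0.0846 with no filter and 0.0612 with summed transcript rows, and that of Dck in T58A lymphomas was 0.0613 with only those groups fitted. The cause of these changes was not tested. No paired analysis was possible because the replicate numbers only follow the order of deposit. A library of 9577372 reads set the lowest depth, and in the simulation of T58A lymphomas against control 26.0% of genes changed by a log2 of 1 were recovered.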
